A study of Carya illinoinensis with 18 samples.

Results

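The comparison concerned the earliest sampling of the drought course, leaves of pecan (*Carya illinoinensis*) at 3 d after watering stopped against leaves at 0 d. It covered every gene whose FPKM averaged 0.1 or more across the 3 libraries of 3 d and the 3 of 0 d, which were 24064 of the 31074 genes listed. FPKM counts fragments relative to transcript length and to the size of the library. The lowest mean kept was 0.1 and the highest mean left out was 0.0983 FPKM, and 5139 of the genes left out were listed at 0 in all 6 libraries. The plants of both days were grafted seedlings of the cultivar Pawnee on seedling rootstocks, kept in a growth chamber, and each library came from the leaves of at least 3 plants. The 3 d seedlings had been without water for 3 d, whereas the 0 d seedlings were untreated and are the only control. No watered seedlings of 3 d are among the 18 libraries of 6 days analysed here, so drought and the passage of 3 d in the chamber cannot be told apart.

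When soil dries, leaves of land plants commonly close their stomata, and the hormone abscisic acid accumulates and changes the transcription of many genes. Photosynthesis then slows as less carbon dioxide enters. Leaf transcripts also follow the hour of sampling and the age of the leaf. A leaf library pools mesophyll, epidermis and veins, so that fewer cells of a type and less RNA per cell cannot be told apart. None of the identifiers of the table matched the RefSeq gene table of pecan, and the table itself pairs no identifier with a gene name. Genes were therefore grouped by their values, only 4 identifiers are given, and leaf markers could not be checked.

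The libraries of 3 d did not form a group of their own. The Pearson r of log2(FPKM + 1) over the genes tested was 0.889 between 3 d replicates 2 and 1 and 0.875 between 3 d replicates 2 and 3. Replicate 2 of 3 d was closest to 0 d replicate 3, with r of 0.970, and had r of 0.907 with 0 d replicate 1 and 0.897 with 0 d replicate 2. Replicate 1 of 3 d was also nearer to a 0 d library (r of 0.960 with 0 d replicate 2) than to 3 d replicate 3 (0.948). The libraries of 0 d had r of 0.988, 0.958 and 0.946 with each other. The libraries 3 d replicate 2 and 0 d replicate 3 were not copies of one another, since 39 of the 18155 genes at 1 FPKM or more in 3 d replicate 2 had the same printed value in both.

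**Figure D1:**
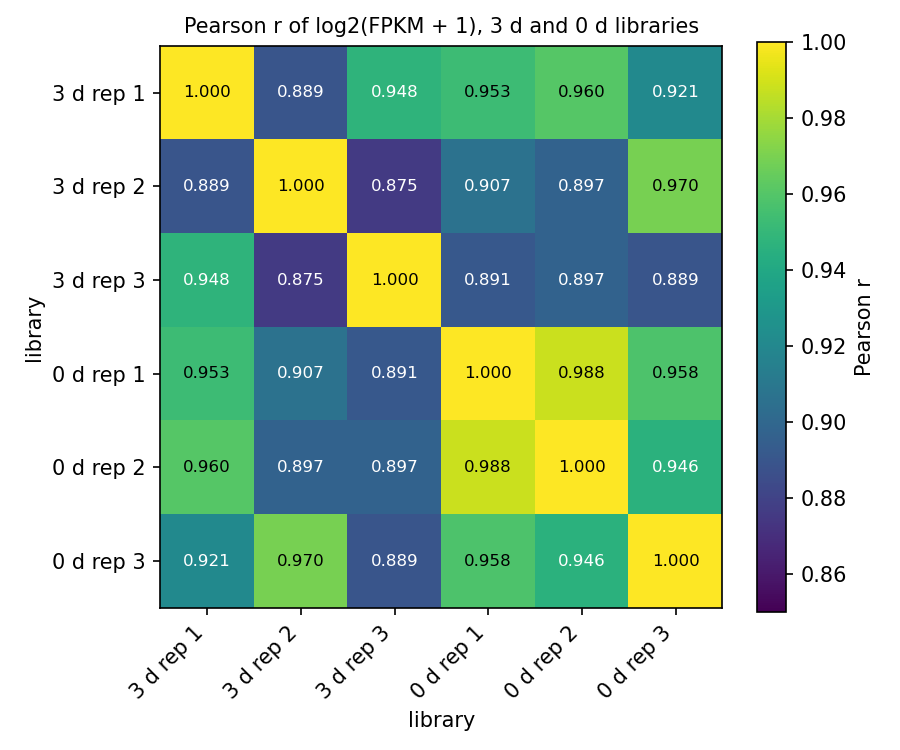
Pearson r of log2(FPKM + 1) for each pair of the 3 d and 0 d libraries (rows and columns), over the genes tested. The cell of 3 d replicate 2 and 0 d replicate 3 (0.970) is higher than those of 3 d replicate 2 with the other 3 d libraries (0.889 and 0.875).

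Limma was applied to the values of 3 d and 0 d as log2(FPKM + 1), a scale that understates the change of genes with low FPKM. All 18 libraries entered the fit, with a mean for each day. Genes were called two-sided where the p adjusted by Benjamini-Hochberg across the genes tested was under 0.05. At 3 d, 1 gene was called as higher (0.00416% of the genes tested) and 6 genes were called as lower (0.0249%). Unadjusted p values under 0.05 were found for 2832 genes, or 11.8%, of which 1995 were higher and 837 lower at 3 d. Over the genes tested the log2 fold change had a median of 0.11 and quartiles of -0.13 and 0.32. The smallest p of an exact test with 3 libraries a day is 0.1, and the calls use the spread pooled over the 18 libraries. The p values set the difference between the 3 d and 0 d means against the spread of libraries within days, to which the later days also contribute. With only the 6 libraries in the fit limma called 0 genes, and 2690 had an unadjusted p under 0.05.

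CIL1267S0005 was the gene called as higher. It had 2.48, 1.08 and 2.46 FPKM in 3 d replicates 1 to 3, against 0.14, 0 and 0.34 FPKM at 0 d, and the days did not overlap. Limma gave an adjusted p of 0.0419 at a log2 fold change of 1.35 with a standard error of 0.21. Later libraries had 1.43, 1.10 and 0.90 FPKM at 6 d and 0.23, 0.21 and 0.46 FPKM at 15 d. Replicates 1 and 3 of 3 d were the highest of the 18 libraries, and the 15 d libraries overlapped those of 0 d.

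CIL0942S0178 had the next smallest p among the genes that were higher in every 3 d library. Its values were 50.22, 15.19 and 20.48 FPKM at 3 d, against 0, 0.53 and 0.12 FPKM at 0 d. The adjusted p of limma, 0.0789, did not pass at a log2 fold change of 4.45 with a standard error of 0.77. All 3 libraries of 3 d lay far above the 0 d range, and replicate 1 was the highest. The gene had 43.18, 22.41 and 19.13 FPKM at 6 d and 0.32, 0.10 and 0 FPKM at 15 d. Limma called it after quantile normalization (adjusted p = 0.0427) and without 3 d replicate 2 (adjusted p = 0.00771). That replicate was the lowest of 3 d in this gene, and without it the log2 fold change was 4.79. Over all alternatives the adjusted limma p of this gene lay between 0.00028 and 0.49.

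CIL1082S0059 had the smallest p of all genes. It was listed at 0.14, 0 and 0.07 FPKM at 3 d, against 3.39, 2.50 and 1.23 FPKM at 0 d. Limma gave an adjusted p of 0.0233 at a log2 fold change of -1.60 with a standard error of 0.20. All later libraries had at most 0.57 FPKM, and none reached the lowest 0 d library. CIL1009S0094 had 0.18, 0.04 and 0.16 FPKM at 3 d, against 18.28, 28.92 and 3.51 FPKM at 0 d. The adjusted p of limma was 0.0298, with a log2 fold change of -3.61 and a standard error of 0.50. It stayed at or below 0.97 FPKM in every library from 6 d to 15 d. Of its 0 d libraries, replicate 3 was the lowest by far and still lay above every 3 d library.

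The other genes called as lower numbered 4, and the days did not overlap in any of them. The most abundant had 25.07, 13.36 and 19.90 FPKM at 3 d, against 619.39, 352.26 and 296.88 FPKM at 0 d. For this gene limma gave -4.34 as the log2 fold change, 0.61 as its standard error and 0.0298 as the adjusted p. Its 6 d libraries had 178.56, 251.49 and 74.64 FPKM and its 15 d libraries 323.17, 411.38 and 287.46 FPKM. No library of another day was below 74.64 FPKM. A second gene was listed at 0 in all 3 libraries of 3 d and of 6 d, and had 3.87, 4.48 and 2.16 FPKM at 0 d. The remaining pair were weakly expressed on both days, with at most 1.58 FPKM at 3 d and at most 3.50 FPKM at 0 d.

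**Figure D2:**
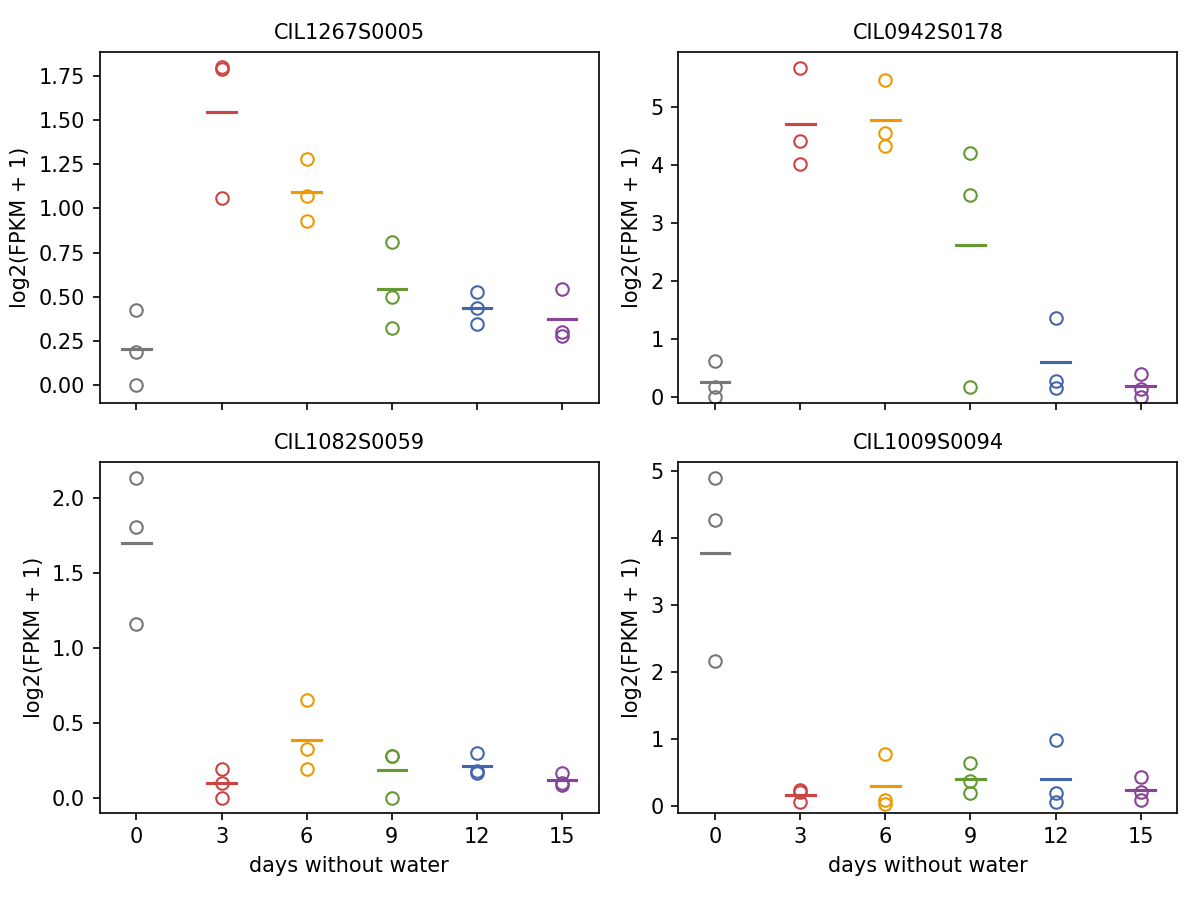
Levels of CIL1267S0005, CIL0942S0178, CIL1082S0059 and CIL1009S0094 as log2(FPKM + 1) against days without water, with 1 circle per library (3 a day) and a line at the day mean. In all 4 genes the 3 d and 0 d libraries do not overlap, and the first 2 genes returned toward the 0 d level by 15 d.

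None of these calls held under every setting. Without 3 d replicate 3, limma called 0 genes as higher and 1 as lower (1367 with an unadjusted p under 0.05). Without 0 d replicate 1 it called 0 genes (1421 with an unadjusted p under 0.05), and without 0 d replicate 2 also 0 genes (1728). Array weights, which gave 3 d replicate 2 a weight of 0.237 and 0 d replicate 1 a weight of 6.15 but whose estimation did not fully converge, gave 1626 genes called as higher and 557 as lower.

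Genes in which the days did not overlap were counted without use of the pooled spread. All 3 libraries of 3 d lay above all 3 libraries of 0 d in 2551 genes (10.6%) and below them in 1768 genes (7.35%). The balance of these directions depended on the scaling between libraries. Quantile normalization gave 1583 genes above and 2308 below, and median-ratio scaling gave 1624 above and 2485 below. The higher genes made up 59.1% of the genes without overlap as deposited, 40.7% after quantile normalization and 39.5% after median-ratio scaling, while the median log2 fold change was 0.0085 with quantile normalization and 0.0074 with median-ratio scaling.

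A stricter count kept genes in which the nearest libraries of the days were apart by at least 1 on the log2(FPKM + 1) scale. There were 26 such genes above the 0 d libraries (0.108%) and 57 below them (0.237%). Quantile normalization gave 16 above and 66 below, and median-ratio scaling gave 20 above and 60 below. Genes with a large separation were thus more often lower than higher at 3 d under each of these scalings with all 6 libraries. The order turned round without 3 d replicate 2 (479 above and 86 below) and without 0 d replicate 3 (176 and 169). Both counts can only stay or rise when a library is left out. Limma called 0 of the 26 genes and 3 of the 57. Of the 26 higher genes, 10 had a mean of at least 10 FPKM at 3 d and 3 had at least 100 FPKM. Of the 57 lower genes, 38 had a mean of at least 10 FPKM at 0 d and 7 had at least 100 FPKM.

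In the 26 higher genes the median level was 7.56, 7.30 and 4.22 FPKM in 3 d replicates 1 to 3, against 0.10, 0.17 and 0.30 FPKM at 0 d. All 3 libraries of 3 d were used to choose these genes, replicate 2 included. The day mean had a median over these genes of 13.7 FPKM at 6 d, and of 6.83, 7.23 and 0.962 FPKM on the following days up to 15 d. By library the medians were 0.755, 3.68 and 10.5 FPKM at 9 d and 1.08, 0.515 and 11.5 FPKM at 12 d. Replicate 3 was thus well above the other libraries on both of these days. In the 57 lower genes the median level was 2.67, 3.40 and 2.55 FPKM at 3 d, against 22.9, 20.9 and 16.3 FPKM at 0 d. Their day means had a median of 2.02 FPKM at 6 d, and of 5.13, 4.06 and 0.81 FPKM on the following days up to 15 d. These later days were not used to choose the genes, but each is set against the same 0 d libraries. By the median of day means, the lower set was still at or below 5.13 FPKM on each later day. Its library medians reached 9.10 FPKM in 9 d replicate 2 and 8.05 FPKM in 12 d replicate 2. The higher set was near 1 FPKM by 15 d.

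**Figure D3:**
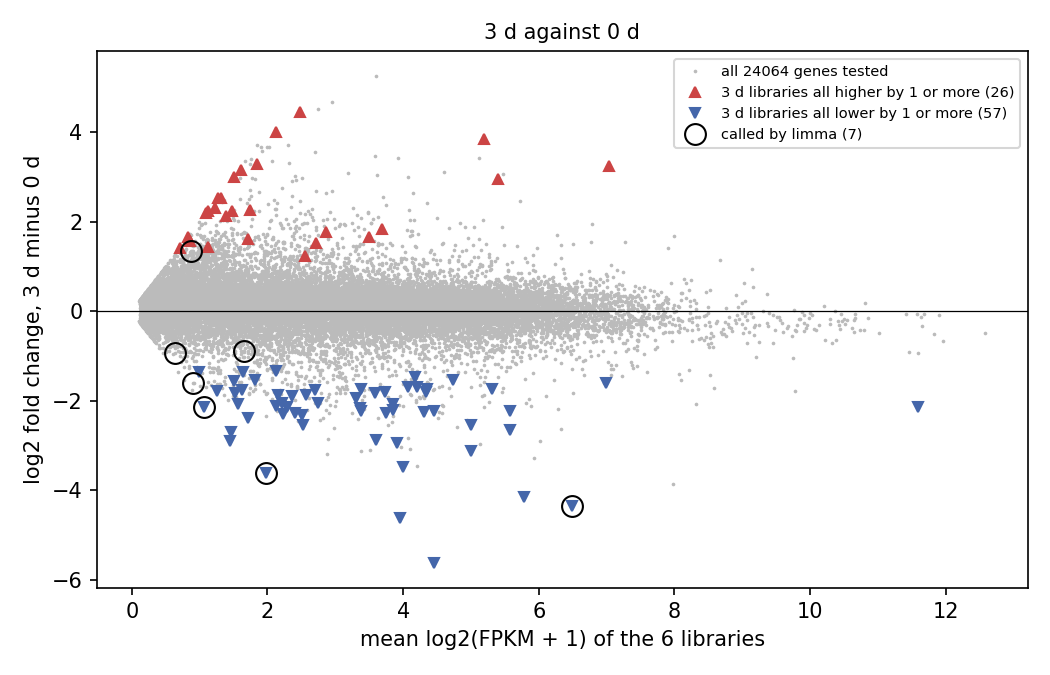
Log2 fold change (3 d minus 0 d) against the mean log2(FPKM + 1) of the 6 libraries, with 1 point for each of the 24064 genes tested. Triangles mark genes whose 3 d libraries all lie above (26) or below (57) those of 0 d by at least 1, and circles mark the 7 genes called by limma, of which 1 lies above and 6 below the line at 0.

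A few genes were listed at 0 throughout one of the days compared, 3 d or 0 d, and above it throughout the other. In 52 of the 24064 genes tested all libraries of 0 d were at 0 and all of 3 d above it. Of these, 16 had a mean of at least 1 FPKM at 3 d. The gene with the highest mean of this set had 34.36, 0.16 and 52.95 FPKM at 3 d, so 3 d replicate 2 was close to 0 there. Its 15 d libraries had 0.13, 0 and 0 FPKM. In 30 of the 24064 genes all libraries of 3 d were at 0 and all of 0 d above it. Their median was 0.40 FPKM at 0 d, and 5 of them had a mean of at least 1 FPKM. Genes at 0 were unevenly spread over libraries, with 503, 1476 and 496 in 3 d replicates 1 to 3 and 707, 787 and 992 at 0 d. The depth of a library is known only relative to the others, so no detection limit is given for these genes.

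Abundant transcripts were more often without overlap downward than upward. Among the 779 genes with a mean of at least 100 FPKM, 47 (6.03%) lay above and 136 (17.5%) below the 0 d libraries, against 10.6% and 7.35% of all genes tested. Quantile normalization gave 53 above (6.80%, against 6.58% of all genes tested) and 116 below (14.9%, against 9.59%). Median-ratio scaling gave 25 above (3.21%, against 6.75%) and 171 below (22.0%, against 10.3%). Without 3 d replicate 2 there were 112 above (14.4%, against 30.2%) and 287 below (36.8%, against 12.6%). Leaving out a library can only keep or raise such counts. In the 100 most abundant genes, 0 lay above and 27 below, with a median log2 fold change of -0.27. Quantile normalization gave 5 above and 11 below with a median of -0.019, and median-ratio scaling gave 0 above and 29 below with a median of -0.40. Without 3 d replicate 2 there were 1 above and 57 below. Limma called 0 of the 100, and 4 had an unadjusted p under 0.05. The most abundant gene had 7171, 4412 and 4387 FPKM at 3 d, against 8738, 7824 and 5564 FPKM at 0 d, so that its days overlapped. The third most abundant had 1390, 1890 and 1198 FPKM at 3 d, against 7492, 5568 and 6495 FPKM at 0 d. The days were apart in this gene, with a log2 fold change of -2.14 and a standard error of 0.82, and limma did not call it (adjusted p = 0.379).

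The 3 libraries of 3 d differed from the 0 d mean in unlike ways. Replicate 1 had 1419 genes higher by at least 1 on the log2(FPKM + 1) scale and 314 lower. Replicate 2 had 734 higher and 1988 lower, and replicate 3 had 2630 higher and 844 lower. In 112 genes all 3 libraries were higher by at least 1 and in 137 all were lower. Large rises were thus more frequent than falls in replicates 1 and 3, and less frequent in replicate 2. The median difference from the 0 d mean over all genes was 0.09 in replicate 1, -0.02 in replicate 2 and 0.18 in replicate 3.

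The departure of 3 d replicate 2 was counted as genes in which it differed from both other 3 d libraries by at least 1 on the log2(FPKM + 1) scale. It was lower in 2516 genes, or 10.5% of the genes tested, and higher in 226, or 0.939%. For the other libraries of 3 d the counts were 116 lower and 595 higher in replicate 1, and 88 lower and 993 higher in replicate 3. At 0 d they were 52 and 10 in replicate 1, 42 and 93 in replicate 2, and 941 and 386 in replicate 3. Replicate 2 of 3 d was thus set apart mainly by low values. In the values as deposited and over the same genes, 9 d replicate 1 had a similar number of low genes, 2498. Over genes, the difference of 3 d replicate 2 from the mean of the other 3 d libraries had a standard deviation of 0.920. This was 0.615 for 3 d replicate 1 and 0.676 for 3 d replicate 3. Within their own days it was 0.898 for 12 d replicate 2 and 0.882 for 9 d replicate 1. For 3 d replicate 2 the counts depended on the scaling. The imbalance was smaller after quantile normalization, with 1564 lower and 804 higher, and was 2198 and 362 after median-ratio scaling.

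**Figure D4:**
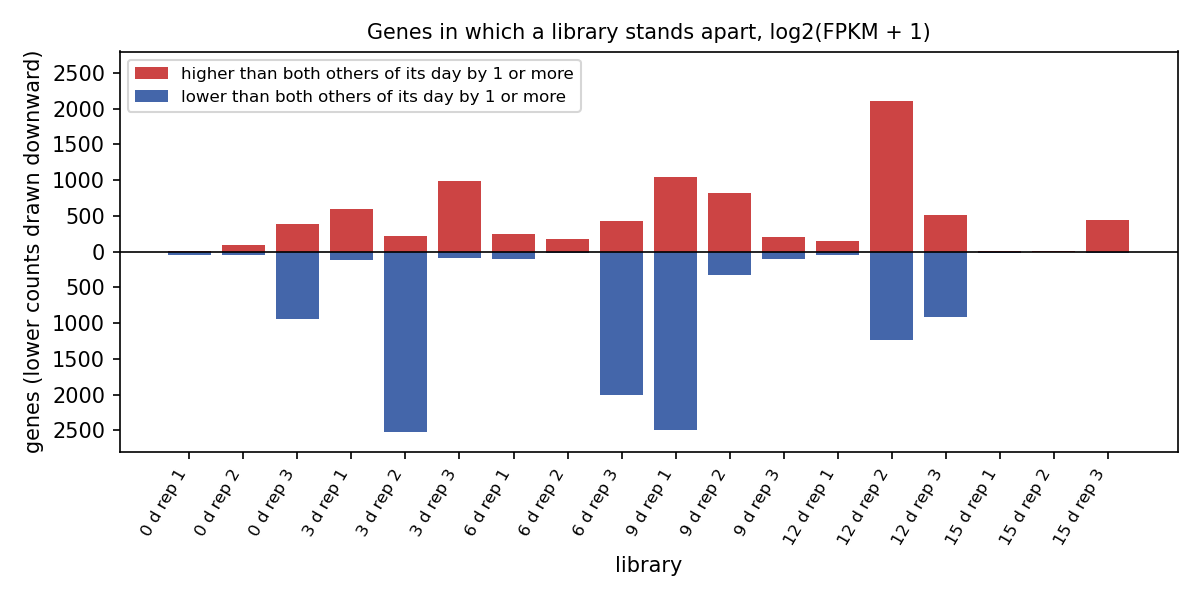
Genes in which a library was higher (upward bars) or lower (downward bars) than both other libraries of its day by at least 1 on the log2(FPKM + 1) scale, for each of the 18 libraries in order of day. In these values as deposited, the downward bars of 3 d replicate 2 (2516 genes), 9 d replicate 1 (2498) and 6 d replicate 3 (2003) are the longest.

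The levels of the genes low in 3 d replicate 2 are given as a description, since the 3 d libraries chose them. Their median over genes was 8.28 FPKM in 3 d replicate 1 and 10.4 FPKM in 3 d replicate 3, against 0.825 FPKM in replicate 2. At 0 d it was 4.27, 5.13 and 2.03 FPKM. In 1222 of the 2516 genes the other 3 d libraries averaged at least 10 FPKM and in 109 at least 100 FPKM, and 272 were listed at 0 in replicate 2. The gap to the nearer of the other 3 d libraries was at least 2 in 816 genes and at least 3 in 313. In the gene with the largest gap, replicate 2 had 0.22 FPKM and replicates 1 and 3 had 335.71 and 300.02 FPKM, against 3.29, 16.49 and 0.35 FPKM at 0 d. Here replicate 2 lay below all libraries of 0 d and the other 3 d libraries above all of them. By abundance, the low genes made up 2.07% of the genes with a mean of 0.1 to 1 FPKM, 16.9% of the genes with a mean of 1 to 10 FPKM, 7.93% of those from 10 to 100 FPKM and 7.06% of those above. On the log2(FPKM + 1) scale, a gene under 1 FPKM in either other 3 d library could not be counted as low. The small share in the class from 0.1 to 1 FPKM is therefore limited by the scale.

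Relative depth was estimated from the most frequent ratio of low values between each pair of libraries. The depth of 3 d replicate 2 was 0.727 of that of the deepest library, 0 d replicate 1, and was the lowest of the 18. Replicate 2 of 0 d had nearly the same depth (0.735) and 42 low genes by the same count. Of the genes tested, 1476 were listed at 0 in 3 d replicate 2, 503 in 3 d replicate 1 and 496 in 3 d replicate 3, against 707 to 992 at 0 d. The part of depth in the departure was not tested. The FPKM of the 3 d libraries summed to between 565413 and 574883, and those of 0 d to between 574675 and 587063.

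Libraries of other days, which had no part in choosing these genes, also differed in them. Replicate 3 of 0 d was the lowest of its day in 2166 of the 2516 genes (86.1%), against 36.0% of all genes tested. Replicate 3 of 6 d was the lowest of its day in 2209 (87.8%, against 42.7% of all genes), and replicate 1 of 9 d in 1651 (65.6%, against 55.4%). At the median these genes were lower than the mean of the other libraries of the day by 0.74 on the log2 scale in 0 d replicate 3, 0.97 in 6 d replicate 3 and 0.51 in 9 d replicate 1. In the libraries of 15 d the shares were 37.0%, 33.0% and 19.3%, near those of all genes (43.2%, 28.1% and 21.3%). The median level of the set was 5.14, 4.13 and 0.97 FPKM at 6 d, 0.76 to 3.37 FPKM at 9 d, 0.77 to 2.01 FPKM at 12 d and 0.77 to 1.24 FPKM at 15 d. Replicate 2 of 3 d, low in these genes by choice, had a median of 0.825 FPKM. That was near the 15 d libraries, and also near 6 d replicate 3 (0.97), 9 d replicate 1 (0.76) and 12 d replicate 3 (0.77). Over all genes tested, the Pearson r of 3 d replicate 2 was lowest with the 15 d libraries (0.705 to 0.766).

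The 226 genes high in 3 d replicate 2 had a median of 33.5 FPKM there, against 8.75 and 11.8 FPKM in 3 d replicates 1 and 3 and 9.54, 8.20 and 17.0 FPKM at 0 d. Replicate 3 of 0 d was the highest of its day in 189 of them (83.6%, against 44.04% of all genes tested). At 6 d replicate 3 was the highest in 112 (49.6%, against 35.5%). Replicate 3 was also the highest in 44.7% at 9 d (against 27.9%), 36.3% at 12 d (against 21.9%) and 56.2% at 15 d (against 53.8%). At 12 d replicate 2 was the highest more often (45.6%, against 49.4% of all genes tested). The median difference of replicate 3 from the other libraries of its day was 0.18 at 6 d, 0.45 at 9 d and -0.039 at 12 d. Over all genes tested, the difference of 3 d replicate 2 from the other 3 d libraries correlated with the same difference of 0 d replicate 3 (Pearson r of 0.653 across genes) and of 6 d replicate 3 (0.539). From 9 d on, these correlations lay between -0.253 and 0.172. Genes are not independent replicates, and the values are given as a description.

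**Figure D5:**
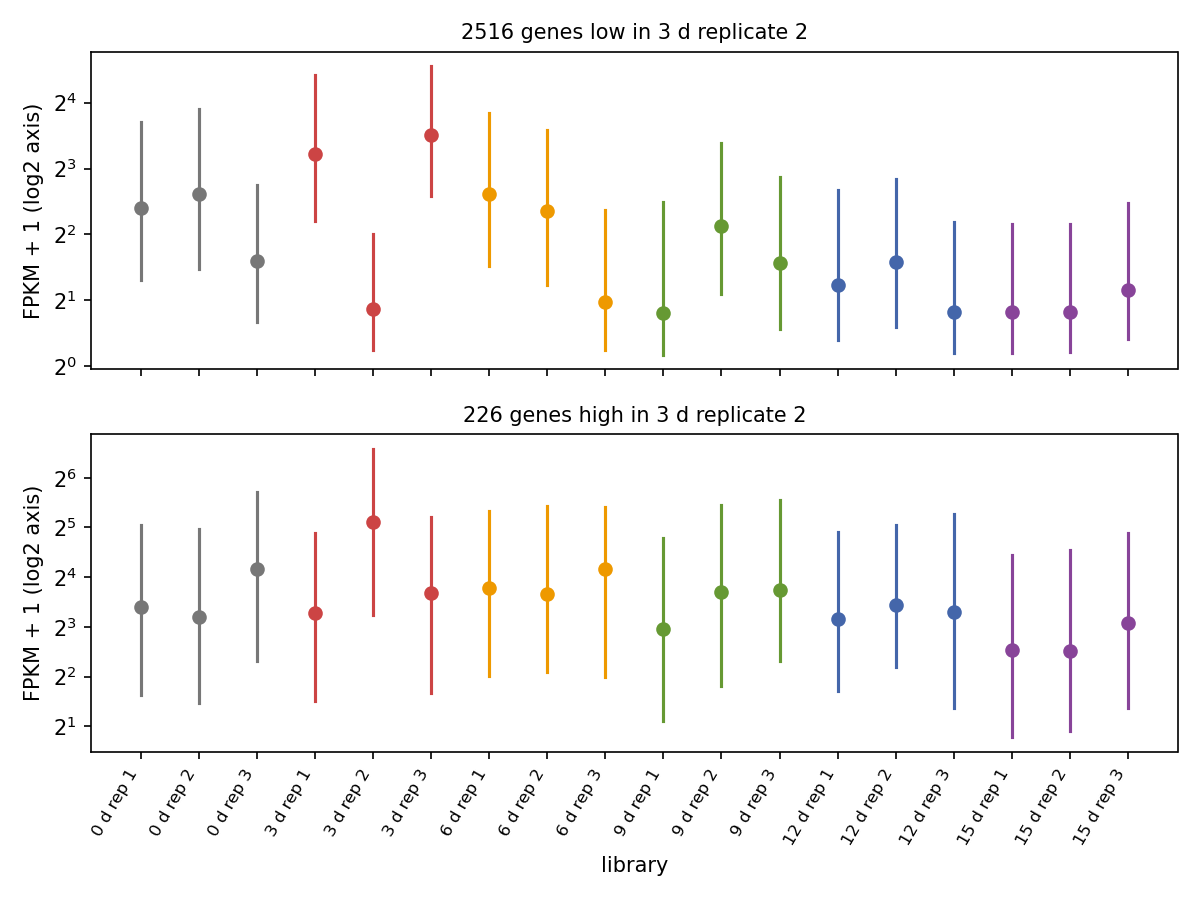
Median (point) and quartiles (line) over genes of FPKM + 1 on a log2 axis in each of the 18 libraries, coloured by day, for the genes low (2516, upper panel) and high (226, lower panel) in 3 d replicate 2. The low genes are also at their lowest level of the day in 0 d replicate 3 and 6 d replicate 3, and the high genes at their highest.

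Among single libraries left out, 3 d replicate 2 moved the count of calls most. Without it, limma called 892 genes as higher (3.71%) and 80 as lower (0.332%) at 3 d, among them all 7 genes called with the full set. This library was singled out because it departs from its day. Leaving it out raises the 3 d mean of the genes low in it and narrows their spread within 3 d. The counts without it are therefore a description, and the 7 genes kept are no independent support. Without this library, quantile normalization gave 559 higher and 257 lower, and median-ratio scaling gave 749 and 186. The counts were 57 and 17 with only the remaining 5 libraries of both days in the fit. When 0 d replicate 3 was also left out, they were 460 and 76. Left out alone, 3 d replicate 1 gave 2 higher and 9 lower, and 0 d replicate 3 gave 3 and 22. With all 6 libraries the days did not overlap, upward, in 2551 of the 24064 genes tested. Leaving out a library can only keep or raise this count. It was 7279 without 3 d replicate 2, 4835 without replicate 1, 3020 without replicate 3 and 5709 without 0 d replicate 3. Genes apart upward by at least 1 numbered 479 without 3 d replicate 2, 46 without replicate 1 and 43 without replicate 3. They numbered 176 without 0 d replicate 3.

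The 892 genes called as higher without 3 d replicate 2 had log2 fold changes from 0.39 to 7.60, with a median of 1.61. Their median level was 2.65 FPKM in 3 d replicate 1 and 7.68 FPKM in replicate 3, against 0.53, 0.63 and 0.27 FPKM at 0 d. In 3 d replicate 2, which had no part in these calls, the median was 0.14 FPKM and thus below each 0 d library. The later libraries were low as well, with 0.86, 0.61 and 0.16 FPKM at 6 d and 0.14 to 0.45 FPKM from 9 d to 15 d. By abundance, 222 were among the 3960 genes tested with a mean of 0.1 to 1 FPKM, 521 among the 9434 from 1 to 10 FPKM, 142 among the 9891 from 10 to 100 FPKM and 7 among the 779 above. Median levels above 1 FPKM were found only in 3 d replicates 1 and 3. The libraries of 3 d replicates 1 and 3 and of 0 d set the fold changes and those of all days the pooled spread, so only 3 d replicate 2 was independent of the choice.

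The 80 genes called as lower without 3 d replicate 2 were also low in that library. Their median level was 0.885 FPKM in 3 d replicate 1 and 0.59 FPKM in replicate 3, against 4.64, 4.17 and 3.54 FPKM at 0 d. In 3 d replicate 2 the median was 1.42 FPKM, below all 0 d libraries and above the other 3 d libraries. The 0 d libraries had a part in choosing these genes, so other libraries tend to lie below them. The median was 0.48, 0.75 and 0.36 FPKM at 6 d and 0.23, 0.30 and 0.40 FPKM at 15 d. The median log2 fold change was -1.30, within a range of -6.02 to -0.45.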

How the data were processed

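RNA of pecan leaves was sequenced on an Illumina platform, with 3 libraries on each of 6 days. FPKM was computed by the authors with RSEM, and the deposited FPKM table has 18 library columns with values to 2 decimals. Their processing notes also name fastp 0.18.0, Bowtie2 2.2.8, HISAT2 and StringTie 1.3.1. The genome build and annotation are not given in the sources used here. Reads that fit more than one gene are split by RSEM, which makes the levels of closely similar genes uncertain. Of 31074 identifiers, 0 matched RefSeq. No column was left aside. Groups and replicate numbers came from the sample titles.

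FPKM was transformed as log2(FPKM + 1). Genes with a mean of at least 0.1 FPKM across the 6 libraries went into limma 3.58.1 (R 4.3.3), where all 18 libraries shared the fit and eBayes used a trend. The script was tested on simulated data. Medians, counts and figures were made with Python 3.11.15, numpy 2.4.6, pandas 2.3.3, scipy 1.17.1 and matplotlib 3.10.9. The relative depth used 2851 genes that were above 0 in 2 to 10 libraries and under 5 FPKM in all, and 98.7% of 153 pairs of libraries lay within 0.05 (log2) of the fitted depths. FPKM holds no counts, so no counting interval is given. The identifiers printed are the 2 of smallest limma p in each direction among genes without overlap and with a mean of at least 1 FPKM on the higher day. The members and lists were chosen with earlier results of these data known. Replicates are labelled as separate libraries and are biological repetitions per the methods, which do not say whether they came from separate plants. Alternatives were the pseudocount, the filter, scaling, the libraries in the fit, array weights, robust eBayes, a fold limit, a replicate block and each library left out.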

Additional observations from a re-analysis of the deposited data

How the results depend on the processing

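The counts of genes called as higher and lower at 3 d, 1 and 6, became 0 and 0 with a pseudocount of 0.1 (2552 genes with an unadjusted limma p under 0.05), 0 and 3 with a mean of at least 1 FPKM, 2 and 17 after quantile normalization, 0 and 0 with only the 6 libraries, and 1626 and 557 with array weights. Median-ratio scaling gave 12 genes called as lower. A fold limit of 1 on the log2 scale left 4 of the 6 lower genes. With no filter, the filter over 18 libraries and robust eBayes the counts stayed at 1 and 6. Leaving out one library gave 0 to 892 higher and 0 to 80 lower. It gave 2889 to 7279 genes above and 2123 to 3064 below without overlap, with 3 d replicate 2 and 0 d replicate 3 the highest in each direction. Counts of genes without overlap or apart by at least 1 can only stay or rise when a library is left out. Genes apart by at least 1 ranged from 28 to 479 above and from 60 to 187 below.

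The replicate numbers were not taken as a pairing, since the methods state none. The deviations of same-numbered libraries of 3 d and 0 d from their day means correlated at 0.525, -0.584 and -0.241. Deviations within a day depend on each other, so these correlations cannot exclude a pairing. With a replicate block limma called 0 higher and 9 lower over 18 libraries, and 0 and 0 (2269 with an unadjusted p under 0.05) over the 6 libraries.

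Genes without overlap numbered 1583 above after quantile normalization and 1624 after median-ratio scaling, and those apart by at least 1 numbered 16 above after quantile normalization. The departure of 3 d replicate 2 was 4428 lower and 498 higher genes with a pseudocount of 0.1, 1564 and 804 after quantile normalization, and 362 higher after median-ratio scaling. Its mean r with the other 3 d libraries was 0.882, and 0.834 with a mean of at least 1 FPKM, whereas its r with 0 d replicate 3 was 0.953 to 0.973 under every such setting. The following were chosen after seeing the data. Without 3 d replicate 2, the counts were 57 and 17 with only the remaining libraries of both days, 559 and 257 after quantile normalization, 749 and 186 after median-ratio scaling, and 460 and 76 also without 0 d replicate 3. The log2 fold change then had a median of -0.048 after quantile normalization and -0.0018 after median-ratio scaling. Leave-one-out counts of genes without overlap, and all alternatives for genes apart by at least 1, were also chosen after seeing the data. The causes of these differences were not tested. The 3 libraries per day and the missing names of genes limit what can be said of single genes.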
